A study of Mus musculus with 74 samples.

Results

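The lysyl oxidases and the collagen hydroxylases are enzymes that modify or crosslink collagen, and their mRNA levels were compared here between primary mammary tumors (PT) and lung metastases (Lung met) of transgenic mice. The set holds 10 genes chosen by name, the lysyl oxidases Lox, Loxl1, Loxl2, Loxl3 and Loxl4, the lysyl hydroxylases Plod1, Plod2 and Plod3, and the prolyl 4-hydroxylase alpha subunits P4ha1 and P4ha2, out of 22079 gene symbols with a mean in at least 1 table. Each of the 10 was listed once in all 5 tables with means, and each passed the filter on low values, an average of both means of at least 10, in every one.

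RNA-seq of dissected tissue covered 74 samples. All animals were females that carried 1 mammary oncogene. In the FVB Her2 (6 PTs, 6 Lung mets) and FVB Myc (6 PTs, 6 Lung mets) mice the MMTV promoter, which is active in mammary epithelium, drove the oncogene, and FVB C3Tag mice (7 PTs, 7 Lung mets) carried a viral T antigen. In the PyMT-F1 mice, MMTV-PyMT males on FVB were bred to females of another strain, and 6 PTs and 6 Lung mets each were labelled BALB, SEAGN and AKR. For PyMT the tumors of an animal were combined and the animals were followed to a humane endpoint, whereas the tumors of the other models were single lesions removed by surgery before metastases were left to grow. The ages of single animals were not given in the sources used here. For the PyMT-F1 samples the titles and the genotype labels named different strains, so each table is called here by the name under which it was deposited. The table deposited as AKR is called AKR-named PyMT-F1, because its name and the study's supplement disagree on the cross it holds. Ratios of its means equalled, within 0.6%, those of a BL6 cross in the supplement for 269 of 275 genes. With any of 5 other crosses listed there, none of them AKR, at most 9 genes were equal. In the same comparison the BALB and SEAGN tables equalled the crosses of those names for 275 of 275 and 267 of 268 genes. The AKR-named ratios are thus nearly all those given for BL6. Whether the deposited name or the supplement's label is wrong was not settled, nor which samples entered these means. The study lists more C3Tag PTs than the labels do, and which of them entered that table's means was not settled.

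What was analysed is the authors' normalized mean of PT and of Lung met for each gene and table. No value of a single sample was analysed, so the spread between animals and the depth are unknown, no test could be run, and "higher" and "lower" below compare 2 means. A gene counts as past the fold where 1 mean was at least 1.5 times the other. The Myc table held no mean and is not described.

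Collagen is built in the endoplasmic reticulum and finished outside the cell. Prolyl 4-hydroxylase, made of alpha subunits such as P4ha1 and P4ha2 with the protein disulfide isomerase P4hb, hydroxylates prolines so that the triple helix holds at body temperature. Lysyl hydroxylases hydroxylate lysines that later take part in crosslinks or carry sugars. Lysyl oxidases are secreted copper enzymes that oxidise lysines and hydroxylysines of collagen and elastin to reactive aldehydes, which then join neighbouring chains. Stiff, crosslinked collagen is a known feature of mammary tumors, and several of these enzymes are known targets of the hypoxia-inducible factors.

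Which members were past the fold, and in which direction, differed from table to table. Whether these differences exceed the spread between animals is unknown. At any size of ratio, 5 members were higher in Lung met and 5 lower in FVB Her2, and 4 and 6 in BALB. The counts were 8 and 2 in FVB C3Tag, 1 and 9 in SEAGN, and 8 and 2 in AKR-named PyMT-F1. In FVB Her2, P4ha1 and P4ha2 were past the fold and higher in Lung met and Loxl3 was past it and lower, which is 2 and 1 of 10 members where 4.97% and 3.40% of all genes were. In FVB C3Tag 2 members, Lox and Loxl1, were higher and 0 were lower, counts near the shares of all genes, 14.0% and 5.28%. In BALB PyMT-F1 0 members were higher and 3 were lower (Loxl2, Loxl3 and Plod1), beside 5.53% and 5.56%. SEAGN PyMT-F1 had 0 higher and 5 lower, namely Loxl2, Loxl3, Plod1, Plod2 and P4ha2, beside 6.23% and 7.06%. In AKR-named PyMT-F1 4 members were higher, namely Loxl4, Plod2, P4ha1 and P4ha2, and 0 were lower, beside 13.1% and 5.81%. The median log2 ratio of Lung met over PT of the 10 members was 0.02 in FVB Her2, 0.29 in FVB C3Tag, -0.08 in BALB, -0.73 in SEAGN and 0.21 in AKR-named PyMT-F1, and that of all genes lay between -0.0020 and 0.034. Of the higher values, the closest past the fold was P4ha2 in FVB Her2, at 1.52-fold, and the closest under it was Loxl3 in FVB C3Tag, at 1.43-fold.

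**Figure D1:**
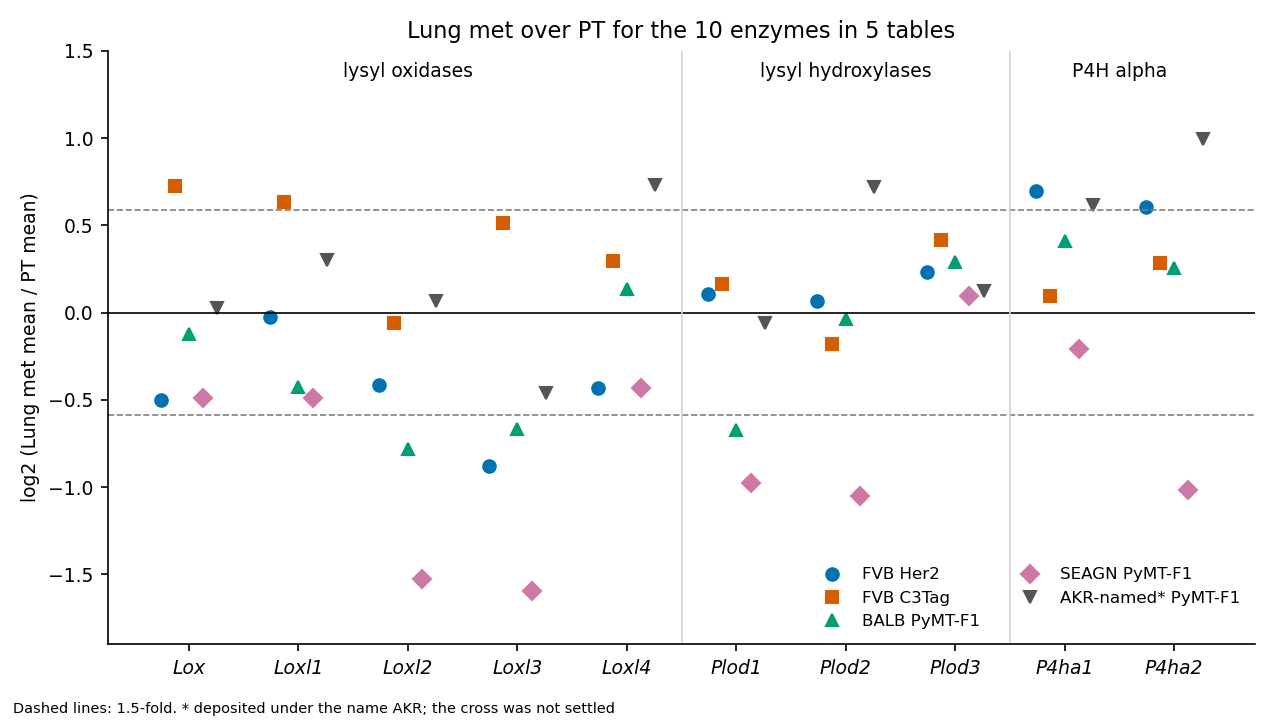
The log2 ratio of the Lung met mean over the PT mean (vertical axis) is plotted for each of the 10 enzymes (horizontal axis, grouped by role), with 1 point per table and dashed lines at 1.5-fold. Plod3 is above 0 in 5 of 5 tables, and the SEAGN points of Loxl2 and Loxl3, at -1.52 and -1.60, are the lowest.

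Among 11796 genes that passed the filter in all 5 tables, 11.5% were higher in Lung met in 5 of 5 and 6.31% were lower in 5 of 5. Plod3 belonged to the former and 0 members to the latter. The distance between a gene's highest and lowest log2 ratio had a median of 0.51 over these genes. Plod3, at 0.32, was the only member under that median, and the other 9 ranged from 0.91 for P4ha1 to 2.11 for Loxl3. SEAGN held the lowest log2 ratio of 9 members, and Lox, lowest in FVB Her2, was the exception; of the 11796 genes 18.1% were lowest in SEAGN and 20.4% in FVB Her2. With the AKR-named table left out, a choice made after seeing the data, Plod3 was higher in 4 of 4 tables, and Loxl2 was higher in 0 of 4 where it had been in 1 of 5. The shares of all genes over these 4 tables were not computed, and agreement in 4 tables is more common than in 5.

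Loxl3 had the lowest ratio of the lysyl oxidases in FVB Her2, SEAGN and AKR-named PyMT-F1, and Loxl2 had it in FVB C3Tag and BALB. Both belong to the subgroup with scavenger receptor cysteine-rich domains, and Loxl2 is known for crosslinking the collagen of basement membranes. The Loxl3 mean was 2188 in PT and 1190 in Lung met of FVB Her2, 150 and 94.8 in BALB, and 173 and 57.2 in SEAGN. PT was thus 1.84-fold, 1.59-fold and 3.02-fold above Lung met, and 98.3%, 95.5% and 98.8% of all genes in those tables had a higher ratio. In AKR-named PyMT-F1 it was 565 in PT and 409 in Lung met, under the fold and in the same direction. FVB C3Tag was the opposite, with 1012 in PT and 1442 in Lung met. Loxl3 lies on chr6:83034173-83052562 (GRCm38, plus strand), and 535 bases, or 11.6%, of its exons are shared with Htra2 on the other strand. Whether the counting used strand is not given in the sources used here. The log2 ratio of Htra2, which encodes a mitochondrial protease, was -0.14 in FVB Her2, 0.36 in FVB C3Tag, -0.31 in BALB, 0.20 in SEAGN and -0.05 in AKR-named PyMT-F1, nearer to 0 than that of Loxl3 in each.

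The Loxl2 mean was 203 in PT and 118 in Lung met of BALB, and 261 and 90.8 in SEAGN. These were PT excesses of 1.72-fold and 2.88-fold, and 96.6% and 98.7% of all genes had a higher ratio. The 3 other tables stayed under the fold, with 520 in PT and 390 in Lung met of FVB Her2, 1022 and 981 in FVB C3Tag, and 401 and 419 in AKR-named PyMT-F1. Loxl2 lies on chr14:69609068-69695834 (GRCm38, plus strand).

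Lox and Loxl1 were past the fold only in the FVB C3Tag table. Lox, the founding enzyme of the family, had a mean of 1784 in PT and 2947 in Lung met there, 1.65-fold higher, and 11.2% of all genes had a higher ratio. Loxl1 (chr9:58287738-58313186, GRCm38, minus strand), known for its part in elastic fibres, had 673 and 1043, 1.55-fold higher. In FVB Her2 the order for Lox was turned, with 923 in PT and 653 in Lung met, as it was in SEAGN, with 380 and 271, both under the fold. The Lox means were 295 and 271 in BALB, and 673 and 685 in AKR-named PyMT-F1, within 1.09-fold of each other in both. Loxl1 was 336 and 331 in FVB Her2, 148 and 110 in BALB, 215 and 153 in SEAGN, and 303 and 373 in AKR-named PyMT-F1. In FVB C3Tag a single non-coding gene, Gm22614, made up 38.3% of the summed PT means, and its part in that table's ratios was not tested; the median log2 ratio of all genes there was 0.01.

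Loxl4 (chr19:42593982-42612813, GRCm38, minus strand) was the least abundant member per exon length in both tissues of all 5 tables. Outside FVB C3Tag, where it had 316 in PT and 387 in Lung met, its means ran from 13.8 to 40.1, so a small absolute difference gave a large ratio. AKR-named PyMT-F1 had 24.2 in PT and 40.1 in Lung met, 1.66-fold higher, which shrank to a log2 value of 0.55, under the fold, when 10 was added to both means. The PT and Lung met means were 29.7 and 22.1 in FVB Her2, 14.7 and 16.2 in BALB, and 18.6 and 13.8 in SEAGN.

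**Figure D2:**
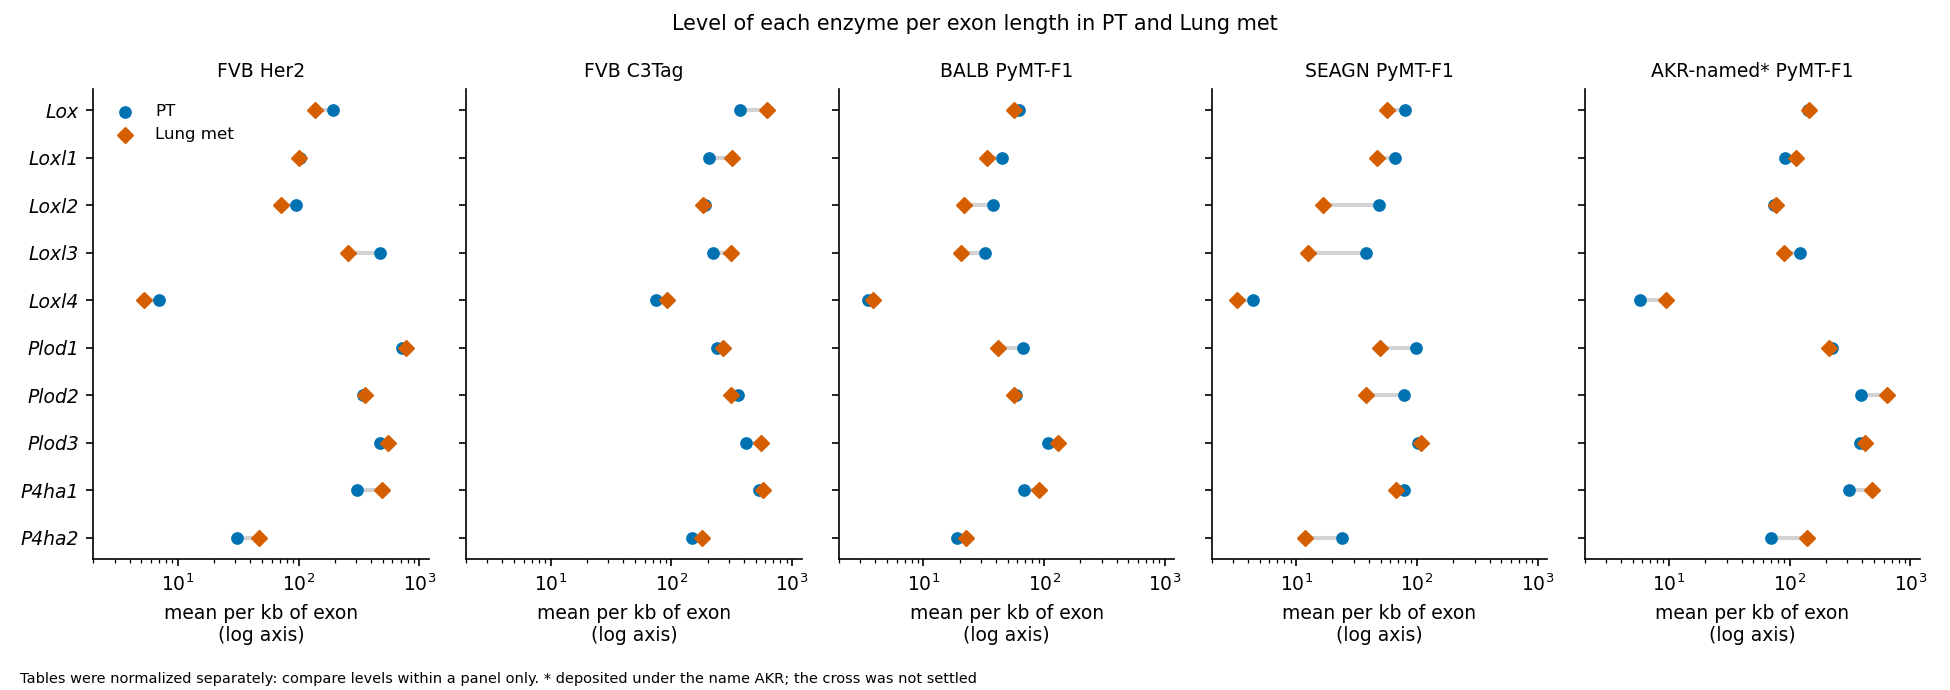
Each panel is 1 table and plots the authors' mean divided by exon length in kb (horizontal log axis, the same range in every panel) for the 10 enzymes, with circles for PT and diamonds for Lung met. Loxl4 is the leftmost gene in every panel, and in SEAGN the Lung met diamond lies left of the PT circle for 9 of the 10 genes.

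The makeup of the lysyl oxidase mRNA was described by dividing each mean by the gene's exon length and taking its share of the sum over the 5 lysyl oxidases. Shares are within a tissue of 1 table, since tables were normalized separately. Lox made up 35.2% of PT and 40.6% of Lung met in FVB C3Tag, 34.2% and 41.6% in BALB, 33.9% and 41.8% in SEAGN, and 32.4% and 33.2% in AKR-named PyMT-F1, the highest share of the 5 in each. FVB Her2 stood apart, with Loxl3 at 54.4% of PT and 45.1% of Lung met and Lox at 22.1% and 23.8%. The Lox share was higher in Lung met than in PT in all 5 tables, and the Loxl3 share was lower in all 5, although in FVB C3Tag it moved only from 20.7% to 20.6%. In SEAGN the Loxl2 share was 20.5% of PT and 12.4% of Lung met and that of Loxl3 16.0% and 9.15%, while Loxl1 was 27.8% and 34.3%. The errors of these shares are unknown.

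**Figure D3:**
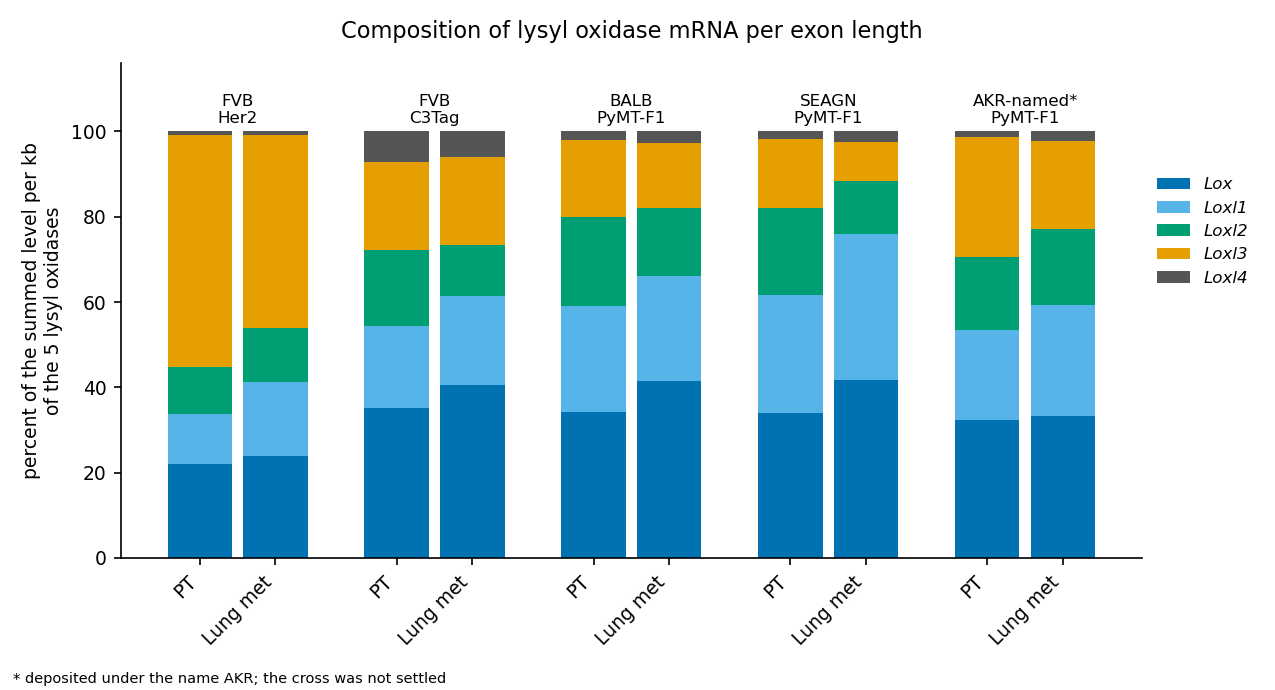
Stacked bars give the percent of the summed level per kb of the 5 lysyl oxidases (vertical axis) taken by each gene, for PT and Lung met of each table. Loxl3 fills 54.4% of the FVB Her2 PT bar, and Lox is the largest segment of every bar outside FVB Her2.

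The lysyl hydroxylases did not share a direction. Plod3, which also carries the glycosyltransferase activity that adds sugars to hydroxylysine, was higher in Lung met in each table and past the fold in 0. Its PT and Lung met means were 2139 and 2512 in FVB Her2, 1868 and 2493 in FVB C3Tag, 482 and 589 in BALB, 460 and 491 in SEAGN, and 1732 and 1883 in AKR-named PyMT-F1. The folds ran from 1.07 in SEAGN to 1.33 in FVB C3Tag. Plod3 lies on chr5:136987019-136996648 (GRCm38, plus strand), and 11.7% of its exon length is shared with Znhit1 on the other strand. Znhit1, whose product is part of a chromatin remodelling complex, had log2 ratios of -0.08 in FVB Her2, 0.08 in FVB C3Tag, 0.28 in BALB, 0.19 in SEAGN and 0.44 in AKR-named PyMT-F1. Those of Plod3 were 0.23, 0.42, 0.29, 0.10 and 0.12 in the same order, so Znhit1 had the higher ratio in SEAGN and AKR-named PyMT-F1. Exons of Lox, Loxl2 and Plod2 overlap those of other annotated genes as well, over lengths not computed here. The part of shared exons in the ratios of Plod3, Loxl3 and these members was not tested.

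Plod1 (chr4:147909753-147936767, GRCm38, minus strand), which hydroxylates lysines within the helix, was lower in BALB, with 449 in PT and 282 in Lung met (1.59-fold), and in SEAGN, with 664 and 338 (1.97-fold). In FVB Her2 it was the most abundant member per exon length, and its means were close, at 4908 and 5286. FVB C3Tag had 1628 and 1820.1 and AKR-named PyMT-F1 had 1504 and 1445. Plod2 (chr9:92542223-92608428, GRCm38, plus strand), which hydroxylates the telopeptide lysines from which the most stable crosslinks form, went past the fold in both directions. Its mean was 420 in PT and 203 in Lung met of SEAGN, 2.07-fold lower in Lung met, against 2106 and 3469 in AKR-named PyMT-F1, 1.65-fold higher. The other means lay close together, at 1833 and 1915 in FVB Her2, 1925 and 1698 in FVB C3Tag, and 313 and 305 in BALB. Whether the SEAGN and AKR-named ratios differ beyond the spread between animals was not tested.

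Of the summed level per kb of the 3 lysyl hydroxylases, Plod3 took the highest share in both tissues of FVB C3Tag, BALB and SEAGN. In SEAGN the 3 shares were near each other in PT, at 36.6% for Plod3, 35.4% for Plod1 and 28.0% for Plod2, and in Lung met they were 55.4%, 25.4% and 19.1%. In FVB Her2 Plod1 was first, with 47.2% of PT and 46.2% of Lung met. In AKR-named PyMT-F1 Plod2 made up 39.2% of PT and 50.5% of Lung met.

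P4ha1 and P4ha2 were higher in Lung met in 4 of 5 tables and lower in SEAGN. Over the 11796 genes, 18.9% were higher in exactly 4 of 5. P4ha1 had a mean of 1251 in PT and 2027 in Lung met of FVB Her2, 1.62-fold higher, and only 3.93% of all genes had a higher ratio. It was 1287 and 1973 in AKR-named PyMT-F1, 1.53-fold higher, and 279 and 371 in BALB, 1.33-fold. FVB C3Tag (2195 and 2346) and SEAGN (320 and 276) were nearer to equal. P4ha2 had 434 in PT and 865 in Lung met of AKR-named PyMT-F1, 2.00-fold higher, and 192 and 292 in FVB Her2. SEAGN was the reverse, with 150 in PT and 74.3 in Lung met, 2.02-fold lower, and 97.2% of all genes had a higher ratio there. BALB had 118 and 141, and FVB C3Tag 927 and 1128. P4ha1 was the main alpha subunit of the pair throughout, with 75.9% to 91.3% of their summed level per kb over both tissues of the 5 tables.

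For P4ha1 and P4ha2 the 250 bases before the RefSeq start sites (GRCm38.p6) are shown, 5′ to 3′ on the gene's strand. Both genes went the same way in each table, but so did Lox and Loxl1, for which no promoter entry was at hand. Capitals mark ACGTG, a form of the core of the known hypoxia response element, searched on both strands (on the other strand it reads CACGT). Other forms of the core were not searched and are not marked. The P4ha1 window is chr10:59323046-59323295, plus strand, directly before the gene (chr10:59323296-59373304). That of P4ha2 is chr11:54100674-54100923, plus strand, which overlaps no exon but lies in an intron of a longer GENCODE M21 transcript of the gene (chr11:54100095-54131665).
P4ha1: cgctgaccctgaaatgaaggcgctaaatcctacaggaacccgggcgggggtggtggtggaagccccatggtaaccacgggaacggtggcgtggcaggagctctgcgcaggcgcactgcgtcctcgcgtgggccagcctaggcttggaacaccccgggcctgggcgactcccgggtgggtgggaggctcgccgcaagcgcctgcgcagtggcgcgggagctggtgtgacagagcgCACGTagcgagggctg
P4ha2: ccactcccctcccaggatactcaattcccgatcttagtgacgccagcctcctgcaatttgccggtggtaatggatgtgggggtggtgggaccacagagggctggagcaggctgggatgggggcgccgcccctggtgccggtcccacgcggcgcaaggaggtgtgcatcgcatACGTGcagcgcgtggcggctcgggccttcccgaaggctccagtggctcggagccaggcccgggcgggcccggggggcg

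The match lies on the other strand of P4ha1, 16 bases before the start, and on the gene's strand of P4ha2, where it begins 78 bases before it. A promoter entry was at hand for 5 of the 10 members. Plod3 also held a match, while Plod1 and Loxl4 held none in this window. Of all 32851 windows of this length in the table, 16.6% held the letters on either strand. A match is a description of the letters and not of a bound factor.

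The hypoxia-responsive genes, a list of 12 such as the lactate dehydrogenase gene Ldha and the carbonic anhydrase gene Car9, were set beside them. Their median log2 ratio was 0.29 in FVB Her2, -0.24 in FVB C3Tag, 0.44 in BALB, -0.43 in SEAGN and 0.18 in AKR-named PyMT-F1, over 10 or 11 genes listed once. In FVB Her2 3 were past the fold and higher and 0 were lower, and in AKR-named PyMT-F1 2 and 0. BALB had 2 higher and 1 lower, and SEAGN had 2 higher and 4 lower. In FVB C3Tag 0 were higher and 2 were lower. The 2 highest in FVB Her2 were Ndrg1 and Ankrd37, at 0.82 and 0.73. The lowest in SEAGN was Car9, at -1.84, and Ankrd37 was the highest there, at 0.82, so the list itself was split in SEAGN. P4ha1, P4ha2 and Plod2 each had the sign of the list median in 4 of 5 tables, as 12.1% of the 11796 genes did. The other members did so in 1 to 3 tables, Lox in 2 and Loxl3 in 1. In FVB C3Tag the list median was negative while both P4ha genes were at 0.10 and 0.28. The part of hypoxia in the ratios of the enzymes was not tested.

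**Figure D4:**
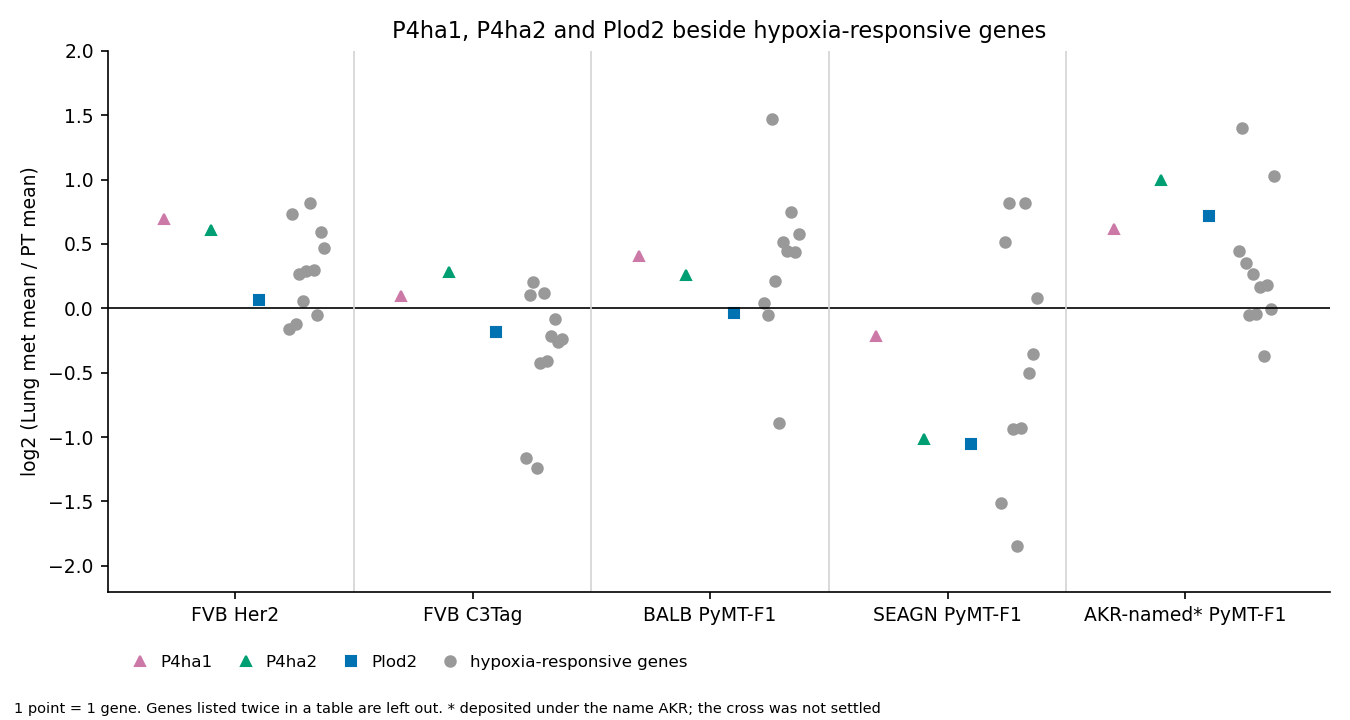
The log2 ratio of Lung met over PT (vertical axis) is shown per table for P4ha1, P4ha2, Plod2 and the hypoxia-responsive genes, with 1 point per gene. In SEAGN, P4ha2 is at -1.02 and Plod2 at -1.05, and the hypoxia-responsive genes run from -1.84 to 0.82. The 5th and 95th percentiles of all genes there were -0.74 and 0.68, so most genes lay in that range too.

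The fibrillar collagens, the main substrates of these enzymes, had lower ratios of Lung met over PT than most of the enzymes. Col1a1, the main chain of type I collagen, had a mean of 3457 in PT and 1369 in Lung met of FVB Her2, 13112 and 8522 in FVB C3Tag, 5297 and 1416 in BALB, 7343 and 1047 in SEAGN, and 5186 and 1951 in AKR-named PyMT-F1. Of the 6 substrates (Col1a1, Col1a2, Col3a1, Col5a1, Col5a2 and Eln), 4 were past the fold and lower in FVB Her2, 1 in FVB C3Tag, 5 in BALB, 5 in SEAGN and 4 in AKR-named PyMT-F1. Eln, which encodes elastin, was the only 1 of the 6 higher past the fold, at a log2 ratio of 2.15 in FVB Her2, 3.52 in FVB C3Tag, 1.75 in BALB and 1.27 in SEAGN, and it was at 0.50, under the fold, in AKR-named PyMT-F1.

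The median log2 ratio of Col1a1, Col1a2 and Col3a1 was -1.26 in FVB Her2, -0.06 in FVB C3Tag, -1.76 in BALB, -2.32 in SEAGN and -1.41 in AKR-named PyMT-F1. All 10 members lay above it in FVB Her2, BALB, SEAGN and AKR-named PyMT-F1, but so did 99.0%, 99.4%, 99.5% and 99.4% of all genes, so these counts say nothing particular of the enzymes. In FVB C3Tag 9 members and 59.6% of all genes did. Taken relative to that collagen median, Loxl3 was the closest to it in FVB Her2, SEAGN and AKR-named PyMT-F1, at 0.38, 0.73 and 0.95, and Loxl2 was in BALB, at 0.97. P4ha1 was the farthest above it in FVB Her2 and BALB, at 1.95 and 2.17, Plod3 in SEAGN, at 2.42, and P4ha2 in AKR-named PyMT-F1, at 2.41. In FVB C3Tag Plod2 was the 1 member below it, by a log2 value of -0.12, and Lox was the farthest above, at 0.79.

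**Figure D5:**
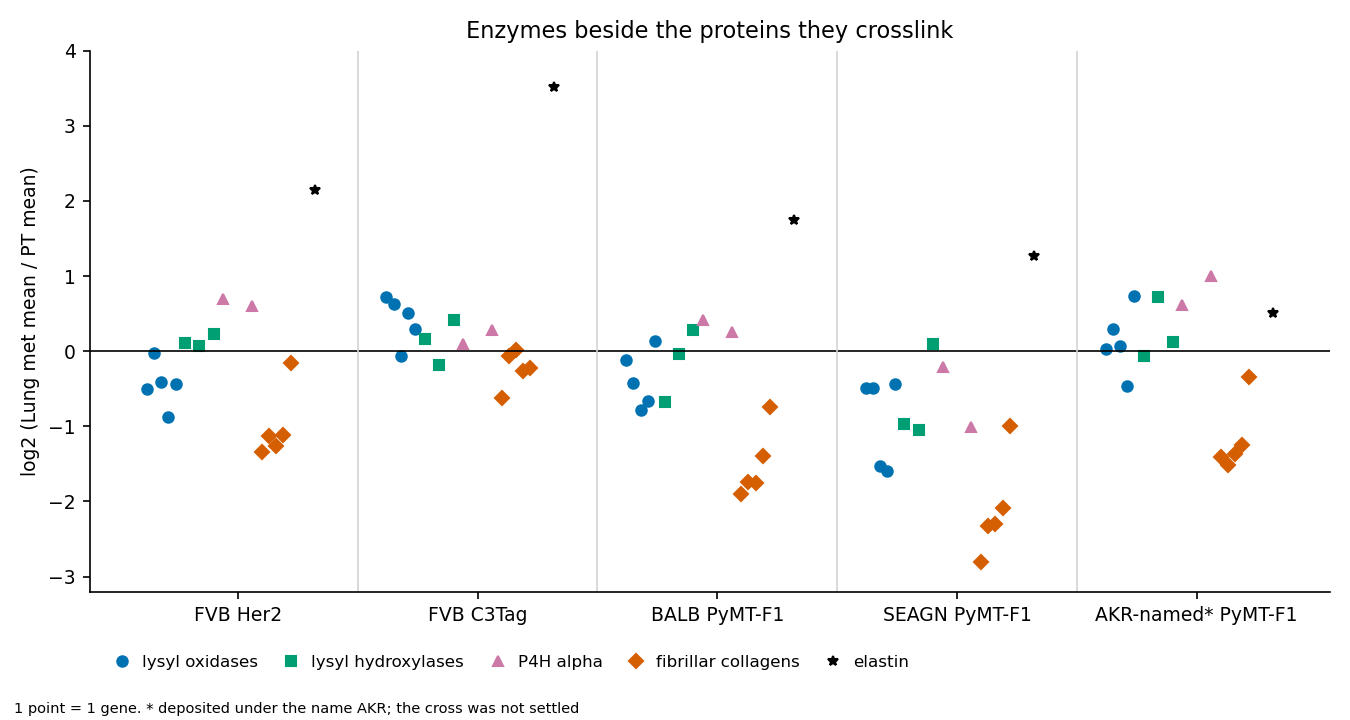
Each point is the log2 ratio of Lung met over PT (vertical axis) of 1 gene in 1 table, with the enzymes in 3 groups beside 5 fibrillar collagen genes and elastin. Elastin is the highest point in FVB Her2, FVB C3Tag, BALB and SEAGN, at 1.27 to 3.52, and in SEAGN Col1a1 is the lowest, at -2.81.

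Fibroblasts make much of the fibrillar collagen and the lysyl oxidases, so their markers are given beside these values. Of 8 fibroblast markers, of which Col1a1 and Col1a2 are also on the substrate list, 6 were past the fold and lower in Lung met in FVB Her2, BALB, SEAGN and AKR-named PyMT-F1, and 4 in FVB C3Tag. Past the fold and higher were 2 in FVB C3Tag (Pdgfra at 0.80 and Dcn at 0.75), 2 in AKR-named PyMT-F1 (Pdgfra at 0.94 and Pdgfrb at 0.65) and 0 in the others. Their median log2 ratio was -1.49, -1.54, -2.37 and -1.41 in the former 4 and -0.34 in FVB C3Tag. Their summed mean was 9188 to 27829 in PT and 2587 to 25069 in Lung met over the 5 tables. Lum, which encodes the proteoglycan lumican, had means of 4.45 in BALB and 4.73 in SEAGN Lung met, against 115 and 198 in PT, while Pdgfra was higher in Lung met in all 5 tables. In bulk tissue, fewer cells of a type and less RNA per cell cannot be told apart, and the part of the fibroblast markers in the ratios of the enzymes was not tested.

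Most of the listed lung epithelium markers had a higher mean in Lung met than in PT. How much lung tissue the Lung met samples held was not measured. Of 10 lung epithelium markers 6 were listed, and the other 4 (Sftpc, Sftpb, Sftpa1 and Scgb1a1) were not analysed here. Their median log2 ratio was 3.38 in FVB Her2, 4.41 in FVB C3Tag, 3.71 in BALB, 4.58 in SEAGN and 4.30 in AKR-named PyMT-F1. The summed means were 2237 to 59015 in PT and 3099 to 58722 in Lung met, and Aqp5, with 57616 in PT of FVB Her2, made up most of the PT sums. The other 5 were past the fold and higher in Lung met in every table. Aqp5 itself was at -0.13 in FVB Her2, 1.69 in FVB C3Tag, -0.66 in BALB, 0.73 in SEAGN and 0.06 in AKR-named PyMT-F1. Endothelial markers were higher too, with 5, 7, 4, 5 and 7 of 7 past the fold in the same order of tables, summed means of 922 to 3170 in PT and 1475 to 8365 in Lung met, and medians of 0.76, 1.43, 0.66, 0.84 and 1.79. Luminal mammary markers such as Krt8 were present in both tissues, with Krt8 means of 2141 to 23619 in PT and 2481 to 25929 in Lung met, and medians from 0.06 to 0.26. Median log2 ratios of macrophage markers ran from -0.32 to 0.66, of smooth muscle and pericyte markers from -0.54 to 0.98, and of myoepithelial markers from -0.55 to 0.96. These medians rest on different genes from table to table. Only 3 of 6 smooth muscle and pericyte markers were listed in SEAGN and AKR-named PyMT-F1. Of 6 myoepithelial markers, 5 were listed in FVB Her2 and BALB, 4 in FVB C3Tag and SEAGN, and 3 in AKR-named PyMT-F1. Only Fabp4 of 5 adipocyte markers was listed, in 4 tables. It was lower in Lung met in each, at -0.38 in FVB Her2, -0.59 in FVB C3Tag, -2.73 in SEAGN and -0.50 in AKR-named PyMT-F1. The SEAGN means were 126 in PT and 19.0 in Lung met. The part of these cell types in the enzymes' ratios was not tested.

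Other genes of the pathway are given next. Of the other collagen modifying enzymes and partners, such as the prolyl 3-hydroxylases and the collagen chaperone gene Serpinh1, 12 to 14 of 14 were listed. In FVB Her2 1 was past the fold and higher and 1 lower, in FVB C3Tag 1 and 0, in BALB 1 and 3, in SEAGN 0 and 2, and in AKR-named PyMT-F1 1 and 0. Their medians were -0.10, 0.26, -0.16, -0.22 and 0.21. Fkbp10, whose product is a partner of the lysyl hydroxylase Plod2, was the lowest of them in FVB Her2 and SEAGN, at -0.71 and -1.03, and Serpinh1 was the highest in AKR-named PyMT-F1, at 0.60.

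The proteases and enhancers that process procollagen and the lysyl oxidase proenzyme had medians of -0.22 in FVB Her2, 0.28 in FVB C3Tag, -0.65 in BALB, -0.75 in SEAGN and -0.14 in AKR-named PyMT-F1, over 6 or 7 of 8 genes. Past the fold, 0 were higher and 1 lower in FVB Her2, 2 and 0 in FVB C3Tag, 0 and 4 in BALB, 0 and 3 in SEAGN, and 2 and 1 in AKR-named PyMT-F1. Bmp1, which cleaves the lysyl oxidase propeptide, was among the 2 highest in BALB and SEAGN, at -0.09 and -0.01. Tll1, of the same protease family, was the lowest in both, at -1.10 and -1.11, with means of only 13.8 in PT and 6.43 in Lung met of BALB and 19.0 and 8.82 in SEAGN. Elsewhere Tll1 was higher in Lung met, at 0.44 in FVB Her2, 0.17 in FVB C3Tag and 0.75, past the fold, in AKR-named PyMT-F1.

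Among matrix proteins that guide lysyl oxidase to its substrate, Postn had the lowest ratio in every table but SEAGN, where Fbln1, which encodes a fibulin, was lowest at -2.42. The highest was Fn1 in FVB Her2, BALB and SEAGN and Fbln5 in FVB C3Tag and AKR-named PyMT-F1. Postn, which encodes periostin, a protein known to bind Bmp1, had means of 5183 in PT and 1453 in Lung met of FVB Her2, 9050 and 4385 in FVB C3Tag, 2340 and 768 in BALB, 2837 and 1466 in SEAGN, and 10038 and 3116 in AKR-named PyMT-F1. Fn1, which encodes fibronectin, had log2 ratios of 1.02, 1.17, 0.99, 0.36 and 1.58 in the same order. Fbln5, the fibulin that tethers Loxl1 to elastic fibres, was at 0.58, 1.95, 0.38, 0.16 and 1.59. Of the list, 1, 3, 1, 0 and 2 genes were higher past the fold and 1, 1, 3, 2 and 1 were lower, of 5 listed in FVB Her2 and 7 elsewhere, with medians of 0.32, 0.41, -0.14, 0.03 and 0.29.

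The crosslinkers that do not use lysine oxidation were few. F13a1, the clotting transglutaminase that macrophages also make, was lower in FVB Her2, BALB, SEAGN and AKR-named PyMT-F1, at -1.55, -1.67, -2.66 and -1.53, and stood at 0.50 in FVB C3Tag. Tgm2, the tissue transglutaminase, was at 0.47, 0.52, 0.69, 0.13 and 0.14 in the order FVB Her2, FVB C3Tag, BALB, SEAGN and AKR-named PyMT-F1, past the fold only in BALB. Tgm1, another transglutaminase gene, was at 0.20, 1.18, 1.27, 1.02 and 0.03 in that order. It was the highest of the list in FVB C3Tag, BALB and SEAGN. Of the list's 4 genes, 0, 1, 2, 1 and 0 were higher past the fold and 1, 0, 1, 1 and 1 were lower, and its medians were -0.06, 0.51, 0.32, -0.16 and -0.03.

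The genes whose log2 ratios over the 5 tables lay closest to a member's were found by the root mean square difference among the 11796 genes. For Plod3 these were Klc2 and Prkx, at 0.058 and 0.063, where the median over all genes was 0.34. Lox was closest to Dok1 and Adrb1, at 0.12 and 0.14 with a median of 0.52, and Loxl1 to Slc46a1 and Kctd17, both at 0.13, with a median of 0.50. For Loxl2 they were Gpr176 and Fbxl7, at 0.13 and 0.14, with a median of 0.84. Loxl3 had the most distant pair, Prr36 and Dnm1 at 0.21 and 0.23, with a median of 0.96, and Loxl4 was closest to S1pr3 and Etv4, at 0.10 and 0.13, with a median of 0.52. Plod1 was closest to Cttnbp2 and Pcdhb21, at 0.11 and 0.13, and Plod2 to Dmtn and Itm2a, at 0.14 and 0.17. P4ha1 lay nearest Ggta1 and Gli1, at 0.16 and 0.17, and P4ha2 nearest Sh2d5 and Tnfrsf1b, at 0.11 and 0.19. None of the 20 nearest genes was a member, and with 5 values per gene these distances are descriptions only.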

How the data were processed

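RNA from PT and Lung met tissue was sequenced in 74 samples; the labels name a stranded total RNA kit and the methods an mRNA kit. In Partek Flow the authors aligned reads, derived gene counts and normalized these, by a method not named in the sources used here. The authors compared both tissues with DESeq2 for PyMT-F1 and with Gene Specific Analysis for the driver models. The submitters' processing notes name STAR 2.7.8a and mm39, while the methods name mm9 and mm10, and BALB and SEAGN genes carry BALB/cJ identifiers. Of 6 deposited tables, 5 hold a least-squares mean of each tissue, treated as a signal that the authors normalized and pooled over samples, with no SD or n. The columns of the authors' ratios, fold changes, p-values and FDRs were not used, which leaves nothing for Myc.

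From the means, log2 of Lung met over PT was taken with no pseudocount, among genes averaging at least 10. Genes were found by symbol; levels were divided by the exon length of GENCODE M21 (GRCm38), which at least 85.0% of the kept genes of a table had. Alternatives were 2-fold, no filter, centring on the median of all genes and a pseudocount of 10. The genes named are all members, the 2 highest and 2 lowest of a list where a value is given, and the 2 nearest genes of each member; Bmp1, Tgm2, Fbln5, Tll1, Pdgfra, Krt8, Aqp5, Htra2, Znhit1, Gm22614 and a list's recurring genes were named after their values were seen. Members and lists were chosen with earlier results of these data known. The computations were tested on simulated data. Depth is unknown, so no interval was computed. Python 3.11.15, numpy 2.4.6, pandas 2.3.3 and matplotlib 3.10.9 were used.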

Additional observations from a re-analysis of the deposited data

How the results depend on the processing

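With a 2-fold in place of a 1.5-fold difference, 0 members were higher and 0 lower in FVB Her2, 0 were higher in FVB C3Tag and in AKR-named PyMT-F1, and 0 were lower in BALB, while 4 were lower in SEAGN. The share of all genes past 2-fold was not computed, so these counts cannot be set against it. With 10 added to both means, 1 member was higher past 1.5-fold in FVB Her2. The median log2 ratios of the members, and all counts without the filter or after centring on the median of all genes, stayed the same within a log2 value of 0.1 or a factor of 1.5. Of 50 log2 ratios of single members, 50 moved by less than 0.1 after centring and 46 with the pseudocount, and the others, 3 of Loxl4 and 1 of Loxl3, came closer to 0; none changed sign past the fold. No paired analysis was possible because only pooled means were analysed, although titles pair PT and Lung met by animal; for the same reason no replicate could be left out. Without the AKR-named table, an alternative added after seeing the data, Lox, Loxl1 and Plod2 were higher in Lung met in 1 of 4 tables each instead of 2 of 5. Depth and the spread between animals remain unknown, so a ratio near 1.5-fold cannot be told from one just under it.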
